A study of Mus musculus with 4 samples.

Results

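The genes described here are 9 markers of natural killer (NK) cells and of the cytotoxic granule: Gzma, Gzmb, Prf1, Nkg7, Klrb1c, Klrd1, Ncr1, Il2rb and Ccl5. They were taken by name, and every array probe whose accession maps to one of them was used, which gave 11 of 55678 probes and 9 of 20284 named genes. The samples were 4 sorted bone marrow fractions of female C57BL6 mice aged 8 weeks, each hybridised to 1 single-colour Agilent array. The long-term stem cell fraction (LT-HSC) was sorted as CD34-ckit+Sca1+Lineage-. The short-term stem cell fraction (ST-HSC) had the same phenotype but carried CD34. Progenitors were labelled ckit+ and Lineage-, while the protocol given for every sample describes them as Sca1- and adds Lineage+ cells, so their gate is uncertain. Differentiated cells were Lineage+ (Lin+), with the lineage antibodies, the number of mice and any pooling not given in the sources used here. No fraction was sorted for NK cells, and the labels name no transgene or treatment.

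NK cells and cytotoxic T cells kill target cells by releasing granules. Perforin opens the way into the target and granzymes, which are serine proteases, then cleave proteins inside it. NK cells choose targets through activating and inhibitory surface receptors, and interleukin-15 signalling through a receptor that contains CD122 keeps them alive. In mouse marrow they make up a small population beside the much more abundant neutrophils, B cells and erythroid cells, and several of these genes are also used by T cells or by myeloid cells.

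Promoter sequences from RefSeq (build GRCm38.p6) were found for 6 of the 9 genes, namely Gzma, Gzmb, Prf1, Klrb1c, Ncr1 and Nkg7. A window from 250 bases before to 50 bases after each start was searched on both strands for GGTGTGA (T-box factors), TGTGGTT (RUNX), AGGAAG (ETS), TTCNNNGAA (STAT) and TGANTCA (AP-1). The 4 promoters below belong to the genes whose signal took the 4 different courses described further on, and the 250 bases before the start are shown, 5′ to 3′ on the gene's strand, with motif matches in capitals. Gzma lies on the minus strand at chr13:113100982-113101231, Gzmb on the minus strand at chr14:56262335-56262584, Klrb1c on the minus strand at chr6:128788642-128788891 and Nkg7 on the plus strand at chr7:43436888-43437137.
Gzma: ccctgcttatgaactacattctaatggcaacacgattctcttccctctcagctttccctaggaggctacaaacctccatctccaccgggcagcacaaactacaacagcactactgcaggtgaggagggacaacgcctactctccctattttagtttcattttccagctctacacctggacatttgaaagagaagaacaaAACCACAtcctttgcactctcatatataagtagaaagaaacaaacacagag
Gzmb: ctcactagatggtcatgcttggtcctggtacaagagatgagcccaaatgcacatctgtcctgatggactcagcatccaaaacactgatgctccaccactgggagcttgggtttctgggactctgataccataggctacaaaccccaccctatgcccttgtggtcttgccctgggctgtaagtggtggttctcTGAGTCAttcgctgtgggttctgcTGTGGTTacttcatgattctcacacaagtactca
Klrb1c: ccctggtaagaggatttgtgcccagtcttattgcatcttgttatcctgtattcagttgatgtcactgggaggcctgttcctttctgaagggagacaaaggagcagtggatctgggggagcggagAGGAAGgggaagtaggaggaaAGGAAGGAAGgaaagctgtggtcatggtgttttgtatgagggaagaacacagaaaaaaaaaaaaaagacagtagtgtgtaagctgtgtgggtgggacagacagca
Nkg7: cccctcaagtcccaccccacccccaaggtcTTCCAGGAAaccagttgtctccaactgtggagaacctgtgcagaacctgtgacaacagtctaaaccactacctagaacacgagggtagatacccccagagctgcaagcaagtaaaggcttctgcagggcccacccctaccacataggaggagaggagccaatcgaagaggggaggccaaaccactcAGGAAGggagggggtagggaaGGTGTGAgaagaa

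The capitals in Gzma are a RUNX match read on the opposite strand, 51 bases before the start. Gzmb holds an AP-1 match at -58 and a RUNX match at -34, and a STAT match at 38 lies after the start, outside the stretch shown. The capitals in Klrb1c are 3 ETS matches at -126, -105 and -101, of which the last 2 share bases. Nkg7 holds a STAT match at -220, an ETS match at -34 and a T-box match at -13. Over the 6 genes, RUNX letters were found in 3, ETS in 3, STAT in 2, T-box in 1 and AP-1 in 1. Among 32851 promoter windows of the same length, 5.27% held the RUNX letters, 35.4% ETS, 8.30% STAT, 3.98% T-box and 7.81% AP-1. These matches describe letters and were not tested as binding sites.

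Each level below is the log2 of a probe's background-corrected signal over the 75th percentile of its array. That percentile lay between 137 and 230 intensity units. From 40.9% to 45.9% of probes per array were well above background by the scanner software's own flag, and no spot was saturated. The ± values are the software's error for a spot, and each member probe had 1 spot per array. With 1 array per fraction there is no replicate check and no p-value, and precision is limited by how many arrays there were. A gene was called different when it changed at least 2-fold and was well above background on at least 1 of the arrays compared. Where 1 side was not well above background, the higher of its own signal and the lowest signal well above background on that array stood in for it, and the difference is given as a lower bound ("at least"). Levels of different genes come from different probes and are not set against each other. RNA was measured in bulk, so fewer cells of a type and less RNA per cell cannot be told apart.

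Among the granule effectors, Gzma had the widest range. Gzma encodes granzyme A, a trypsin-like granule protease, and its levels were -2.01 ± 0.23 for LT-HSC, -5.49 ± 1.45 for ST-HSC, -2.89 ± 0.37 for the progenitors and 3.96 ± 0.14 for Lin+ cells. The ST-HSC and progenitor signals were not well above background and have no order between them, LT-HSC was just measurable, and Lin+ cells stood far above the rest. In intensity units the Lin+ spot read 3591 against 47.6 in LT-HSC.

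Gzmb took another course. It encodes granzyme B, the granule protease that cuts after aspartate and activates caspases, and its levels were -0.21 ± 0.16 for LT-HSC, -3.21 ± 0.38 for ST-HSC, 0.99 ± 0.15 for the progenitors and -0.52 ± 0.15 for Lin+ cells. Progenitors were highest, LT-HSC and Lin+ cells did not differ beyond 2 spot errors, and ST-HSC was not well above background.

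Prf1, which encodes perforin, was nearly level. Its levels were 1.07 ± 0.15 for LT-HSC, 0.98 ± 0.15 for ST-HSC, 1.49 ± 0.15 for the progenitors and 1.05 ± 0.14 for Lin+ cells. Progenitors lay above LT-HSC by 0.42 ± 0.21, just beyond 2 spot errors, and LT-HSC, Lin+ cells and ST-HSC did not differ beyond theirs. The whole range of 0.50 was the smallest of the 9 genes, and the specificity of the probe was not examined.

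Nkg7, a small membrane protein of cytotoxic granules that takes part in their release, was bright on every array. Its brighter probe gave 5.20 ± 0.14 for LT-HSC, 6.15 ± 0.14 for ST-HSC, 7.39 ± 0.14 for the progenitors and 6.35 ± 0.14 for Lin+ cells. The other probe gave 3.82, 4.92, 5.99 and 5.03 in that order, so both put progenitors highest and LT-HSC lowest. Lin+ cells and ST-HSC did not differ beyond 2 spot errors.

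Among the surface receptors, Klrb1c encodes NK1.1, the activating lectin-like receptor by which C57BL6 NK cells are commonly recognised, and its brighter probe gave 0.18 ± 0.15 for LT-HSC, -2.35 ± 0.23 for ST-HSC, -4.13 ± 0.90 for the progenitors and 0.08 ± 0.15 for Lin+ cells. LT-HSC and Lin+ cells did not differ beyond 2 spot errors, ST-HSC was lower, and progenitors were not well above background. The other Klrb1c probe, assigned to another RefSeq transcript, was not well above background on any array, with levels of -3.27, -5.27, -4.76 and -3.42, so it gives no difference. The bright probe's LT-HSC spot carried a flag for a local background far from that of the other spots, and the LT-HSC level of Klrb1c therefore rests on 1 flagged spot.

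Klrd1 encodes CD94, the partner of the NKG2 receptors that read non-classical MHC class I. Its levels were -2.32 ± 0.27 for LT-HSC, -2.34 ± 0.22 for ST-HSC, -4.51 ± 1.05 for the progenitors and 0.40 ± 0.15 for Lin+ cells. Lin+ cells were highest, the stem cell fractions were low and did not differ from each other beyond 2 spot errors, and progenitors were not well above background. Ncr1, which encodes the activating receptor NKp46, gave -4.98 ± 1.45, -4.73 ± 0.88, -4.31 ± 0.93 and -2.86 ± 0.26 in the same order. Ncr1 was well above background in Lin+ cells alone among the 4 arrays, at 31.8 intensity units, and the other 3 fractions have no order.

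Il2rb encodes CD122, the signalling chain shared by the interleukin-2 and interleukin-15 receptors. Its levels were -2.59 ± 0.29 for LT-HSC, -5.02 ± 0.96 for ST-HSC, -2.60 ± 0.29 for the progenitors and 1.28 ± 0.14 for Lin+ cells. Lin+ cells stood apart, LT-HSC and progenitors were low and did not differ beyond 2 spot errors, and ST-HSC was not well above background. Ccl5, the chemokine RANTES, which cytotoxic lymphocytes store and release, was well above background everywhere, at 3.29 ± 0.14, 2.83 ± 0.14, 1.85 ± 0.14 and 5.44 ± 0.14. Every pair of neighbours in the order Lin+, LT-HSC, ST-HSC and progenitors differed beyond 2 spot errors for Ccl5.

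Counted over fractions, 8 of the 9 genes were well above background in LT-HSC, 5 in each of ST-HSC and progenitors, and all 9 in Lin+ cells. Lin+ cells held the highest level for 5 (Gzma, Klrd1, Ncr1, Il2rb and Ccl5), progenitors for 3 (Gzmb, Prf1 and Nkg7), LT-HSC for 1 (Klrb1c, level with Lin+ cells) and ST-HSC for 0. Of all named genes, the share well above background was 58.6% for LT-HSC, 59.9% for ST-HSC, 57.5% for the progenitors and 61.5% for Lin+ cells, so the counts for ST-HSC and progenitors are near those of genes at large. Among all genes measured on at least 1 array, 25.9% were highest in Lin+ cells, 35.5% in progenitors, 23.0% in LT-HSC and 15.6% in ST-HSC.

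**Figure D1:**
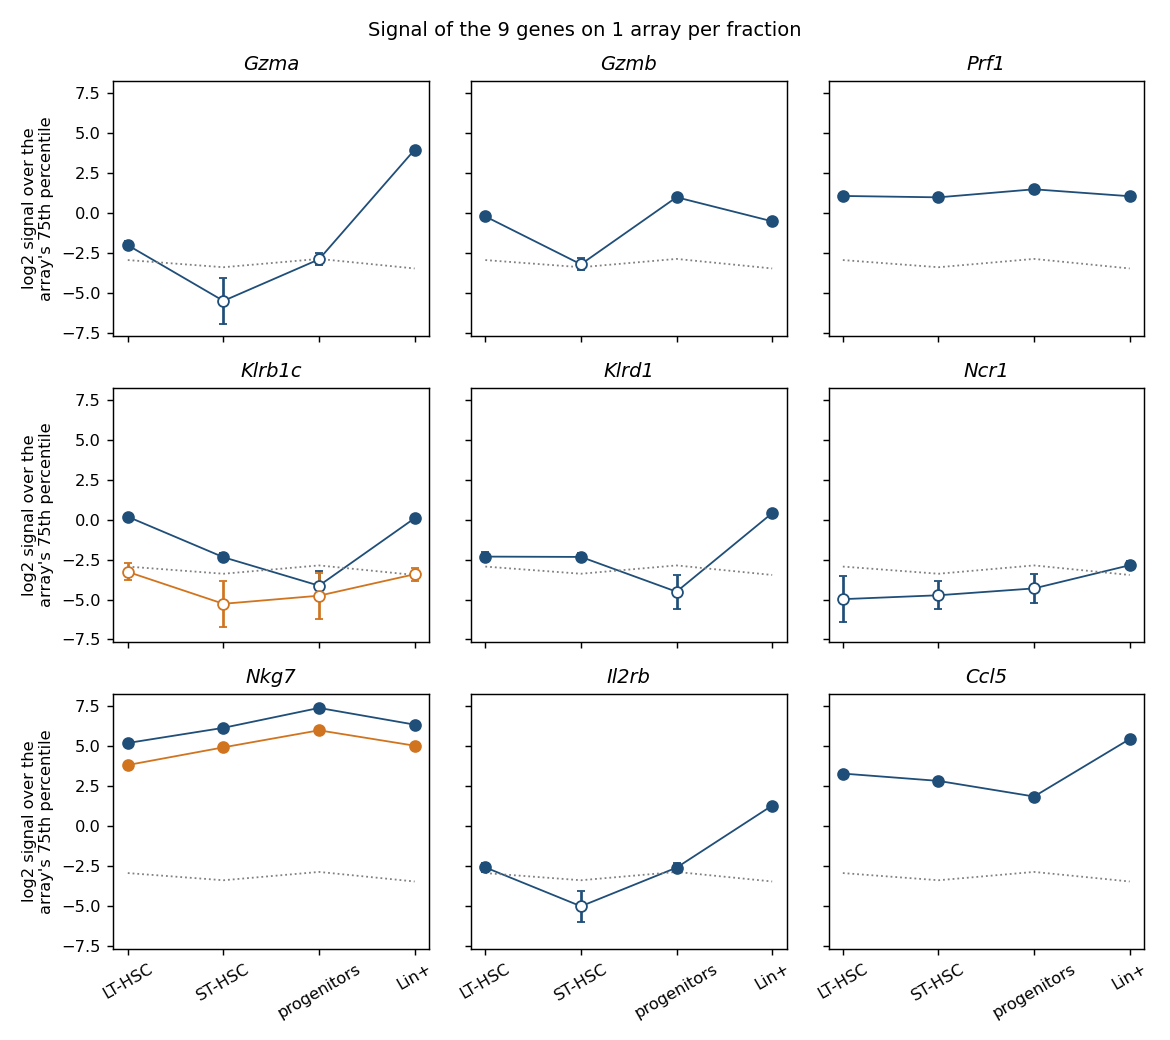
Levels of the 9 genes in the 4 fractions, with 1 panel per gene; the y axis is the log2 signal over the 75th percentile of the array and the x axis the fraction. Blue marks the probe that stands for the gene and orange a second probe; filled points are well above background, open points are not, bars are the spot error, and the dotted line is the lowest signal well above background on each array. Gzma, Klrd1, Il2rb and Ccl5 peak in Lin+ cells, Gzmb and Nkg7 in progenitors, and Prf1 spans 0.50.

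Gzmb, Klrb1c and Gzma were lower in ST-HSC than in LT-HSC. Of 8 genes tested, 3 were at least 2-fold lower in ST-HSC, where 9.01% of all 12624 genes tested were, and 0 were higher, where 5.81% were. Gzmb was 7.98-fold lower, Klrb1c differed by -2.53 ± 0.28 on the log2 scale, and Gzma was at least 2.60-fold lower. The Klrb1c value rests on 1 flagged LT-HSC spot, and its other probe gave no difference. Without spots flagged for their background, the count of lower genes was 2, and it was also 2 with normexp. The Gzmb value rests on its own ST-HSC signal of -3.21 ± 0.38, which was not well above background, and is no lower bound. Nkg7 moved the other way by 0.95 ± 0.20, under the 2-fold threshold, and its second probe by 1.11 ± 0.20, over it. Nkg7 passed the threshold with spike-in scaling (1.29), with normexp background correction (1.03) and as the mean of its probes (1.03), and Gzma lost its call with normexp (-0.77). Gzmb and Klrb1c kept theirs with normexp at smaller sizes, -1.39 and -1.40. That setting changed the spot signal, the background correction and an added offset together, and the cause of the smaller sizes was not tested. Prf1 and Klrd1 differed by -0.09 ± 0.21 and -0.02 ± 0.34, Ccl5 by -0.46 ± 0.20, and Il2rb was at least 1.74-fold lower. The median of the 8 genes was -0.63, beside 0.03 over all genes, and it was -0.09 over the genes well above background on both arrays.

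Between ST-HSC and progenitors, the granule genes Gzmb and Nkg7 were higher in progenitors. They were 2 of 7 genes tested, where 10.0% of all 12615 genes were higher, and 0 of the 7 were lower, where 10.2% of all genes were. Gzmb was 18.3-fold higher, again from its own ST-HSC signal and so no lower bound, and Nkg7 was higher by 1.25 ± 0.20. For Gzmb the difference was 4.20 on the log2 scale, 2.24 with normexp and 3.55 with spike-in scaling. The Nkg7 call was lost with 3 other scalings, at 0.99 with the percentile taken over detected probes alone, 0.71 with quantile normalization and 0.60 with spike-in scaling. Ccl5 differed by -0.98 ± 0.20, just under the threshold, and passed it with 6 of the alternative settings named in the closing section, at -1.04 to -1.63. Prf1 differed by 0.50 ± 0.21. Il2rb was at least 1.73-fold higher in progenitors, and Klrb1c and Klrd1 were at least 1.43-fold and 1.45-fold lower. Gzma and Ncr1 were not well above background on either array. The median of the 7 genes was 0.50, beside 0.18 over all genes, but it moved to 0.24 with the percentile over detected probes, to 0.30 with the median gene at 0 and to -0.15 with spike-in scaling. Successive comparisons share the array between them, so the low Gzmb signal of ST-HSC enters both this call and that against LT-HSC.

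Between progenitors and Lin+ cells the 9 genes split. Of 9 tested, 5 were at least 2-fold higher in Lin+ cells, where 14.5% of all 12991 genes tested were, and 2 were lower, where 26.4% were. Gzma was at least 114-fold higher, Il2rb higher by 3.88 ± 0.33, Ccl5 by 3.59 ± 0.20, Klrd1 at least 9.65-fold and Klrb1c at least 7.74-fold. Each of these 5 kept its call under the alternatives that left it a value, but the sizes did not hold. With normexp the log2 differences were 4.92 for Gzma, 2.48 for Il2rb, 1.67 for Klrd1 and 1.32 for Klrb1c, against 6.83, 3.88, 3.27 and 2.95. With the mean of its disagreeing probes Klrb1c gave 1.20.

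The genes lower in Lin+ cells than in progenitors were Gzmb, by -1.51 ± 0.21, and Nkg7, by -1.05 ± 0.20. Nkg7's second probe gave -0.96 ± 0.20, under the threshold. The median of all genes measured on both arrays was -0.42, and with that median set to 0 Gzmb remained called while Nkg7 moved to -0.63 and lost its call. With spike-in scaling both lost their calls, at -0.86 for Gzmb and -0.40 for Nkg7, and with normexp they gave -0.99 and -0.85. Prf1 differed by -0.43 ± 0.21, and for Ncr1 the bound was 1.01-fold, which sets no size. The median of the 9 genes was 2.95, beside -0.36 over all genes. That median is the bound of Klrb1c, and it was 1.64 without spots flagged for their background, which leaves Klrb1c out of it, 1.49 with normexp and 1.20 with the mean of a gene's probes. Over the genes well above background on both arrays its sign turned, to -0.43.

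Lin+ cells were also compared with LT-HSC, an array that the comparison of the stem cell fractions shares. Here 5 of the 9 genes were higher in Lin+ cells, where 16.1% of all 13288 genes were, and 0 were lower, where 23.2% were. All 5 were measured on both arrays: Gzma by 5.97 ± 0.27 (62.7-fold), Il2rb by 3.87 ± 0.32, Klrd1 by 2.72 ± 0.30, Ccl5 by 2.16 ± 0.20 and Nkg7 by 1.15 ± 0.20. Nkg7 fell under the threshold with median scaling (0.90), and with normexp Gzma gave 4.64, Il2rb 2.71 and Klrd1 1.49. Gzmb, Klrb1c and Prf1 differed by -0.31 ± 0.22, -0.09 ± 0.21 and -0.02 ± 0.21, so for these 3 genes neither end of the differentiation order was set apart beyond 2 spot errors. The bound for Ncr1 was 1.06-fold, and the median of the 9 genes was 1.15, beside -0.17 over all genes. It lay between 1.15 and 2.12 over the alternatives.

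**Figure D2:**
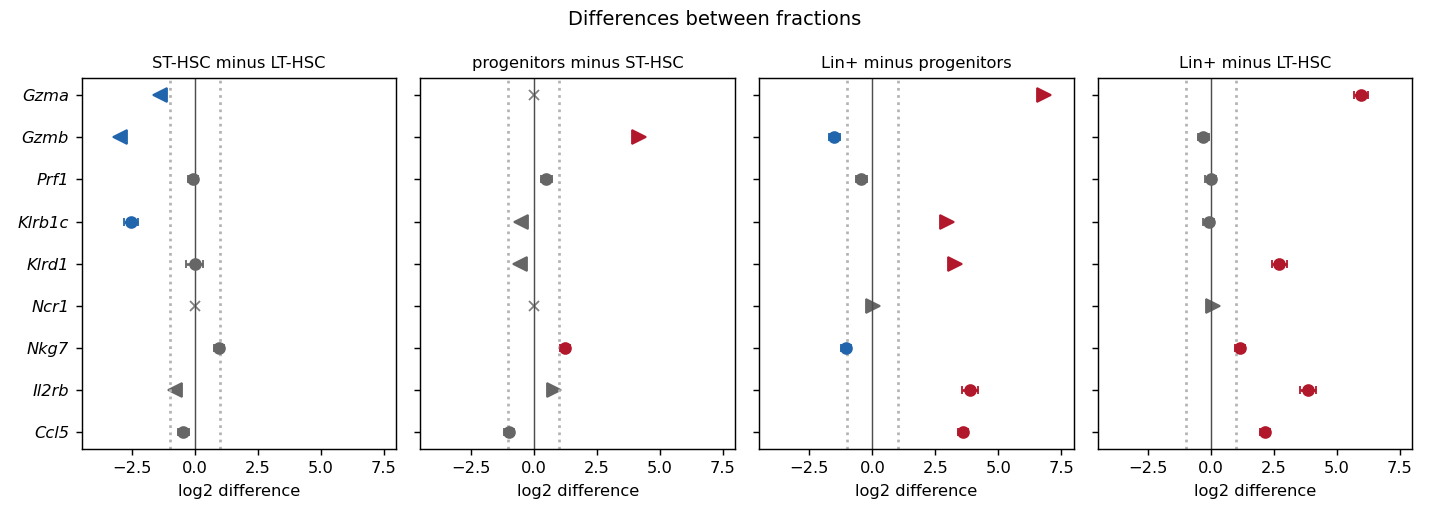
Log2 differences of the 9 genes in the 4 comparisons. Circles are differences measured on both arrays with the spot error as bars. Triangles point away from 0 and are lower bounds, except those of Gzmb, which rest on its own ST-HSC signal. Grey crosses at 0 mark genes not well above background on either array, which have no value. Red and blue mark genes at least 2-fold higher or lower, grey the rest, and dotted lines the 2-fold threshold. The 5 red marks between progenitors and Lin+ cells lie at 2.95 to 6.83, and Gzmb is blue, red and blue in the first 3 panels.

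The other genes of the cytotoxic pathway were taken by role from lists, and unless said otherwise the counts are for Lin+ cells against progenitors. Each list count is to be read beside all genes tested there, of which 14.5% were higher and 26.4% lower. The median over all genes was -0.36. Of 14 other granule effectors and death ligands, 9 were tested, 2 were higher and 1 lower, and the median was -0.02. Fasl, the death ligand, was at least 4.93-fold higher, the cysteine protease Ctsw (cathepsin W) was higher by 1.82 ± 0.24, and Tnfsf10, which encodes the death ligand TRAIL, differed by -1.29 ± 0.23. Ctsw and Tnfsf10 had been lower in progenitors than in ST-HSC, by -1.66 ± 0.24 and -2.32 ± 0.21. Of 9 tested genes of granule exocytosis, 2 were higher and 0 lower (median 0.01): Lyst, the lysosomal trafficking regulator, at least 8.55-fold, and the SNARE Stx11 by 2.66 ± 0.21. Stx11 was at least 9.97-fold higher in progenitors than in ST-HSC and at least 2.40-fold lower in ST-HSC than in LT-HSC, the same called directions as Gzmb at those steps. Of 3 tested granzyme inhibitors, 0 reached 2-fold in either direction. Serpinb9, the inhibitor of granzyme B, was lower in progenitors than in ST-HSC by -1.73 ± 0.30, and Serpinb6a was lower in ST-HSC than in LT-HSC by -1.56 ± 0.20.

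Other NK receptors were higher in Lin+ cells for 11 of 16 tested and lower for 0, with a median of 1.33. Of all genes tested, 14.5% were higher and 26.4% lower. Of the 21 on the array, 16 were well above background in Lin+ cells, against 4 in LT-HSC, 5 in ST-HSC and 4 in progenitors. Of all named genes, 61.5% were in Lin+ cells, 58.6% in LT-HSC, 59.9% in ST-HSC and 57.5% in progenitors. Slamf7, a SLAM-family receptor, was at least 13.8-fold higher, and the Ly49 receptors Klra4, Klra7 and Klra8 at least 10.1-fold, 8.51-fold and 7.99-fold. The Ly49 genes are near-identical copies, and how far their probes share signal was not examined. Klrk1, which encodes NKG2D, and Klrc1, the NKG2A partner of CD94, were not well above background on any of the 4 arrays, at -4.57 and -4.34 in Lin+ cells.

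Among 10 tested adaptors and kinases that pass on receptor signals, 7 were higher and 1 lower (median 1.18). The kinase Zap70, which T and NK cells share, was higher by 4.58 ± 0.33, the adaptor Fcer1g by 1.77 ± 0.20, and Tyrobp, which encodes DAP12, by 1.47 ± 0.20, while Sh2d1a was at least 2.77-fold higher. Tyrobp had also been higher at both earlier steps, by 2.16 ± 0.20 in ST-HSC over LT-HSC and by 1.29 ± 0.20 in progenitors over ST-HSC. In interleukin-2 and interleukin-15 signalling, 3 of 9 were higher and 2 lower (median -0.05). Il2ra was at least 12.5-fold higher, the common chain Il2rg was higher by 1.20 ± 0.21 and Jak1 by 1.14 ± 0.20, while Stat5a and Cish, a feedback inhibitor, differed by -2.23 ± 0.20 and -1.28 ± 0.20. Il2rb's partner Il2rg and the kinase Jak1 were lower in progenitors than in ST-HSC, by -1.77 ± 0.21 and -1.28 ± 0.20.

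Of 13 related chemokines, cytokines and receptors, 7 were higher and 1 lower (median 1.17). Ccr3, a receptor for Ccl5, was at least 20.9-fold higher, the NK chemokine Xcl1 was higher by 4.14 ± 0.34, and Ifng, interferon-gamma, and Il18rap were at least 9.20-fold and 5.92-fold higher. Of 11 transcription factors of NK and cytotoxic cells, 7 were higher and 1 lower (median 1.79). Ets1 was higher by 3.98 ± 0.23, Id2 by 3.76 ± 0.21 and Tbx21, which encodes T-bet, and Eomes at least 11.1-fold and 5.35-fold. The factor that was lower was Runx3, by -2.02 ± 0.21, named here after its value was seen. Tox, needed for early NK development, was lower at both earlier steps, by -1.57 ± 0.21 in ST-HSC and by -1.96 ± 0.27 in progenitors.

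**Figure D3:**
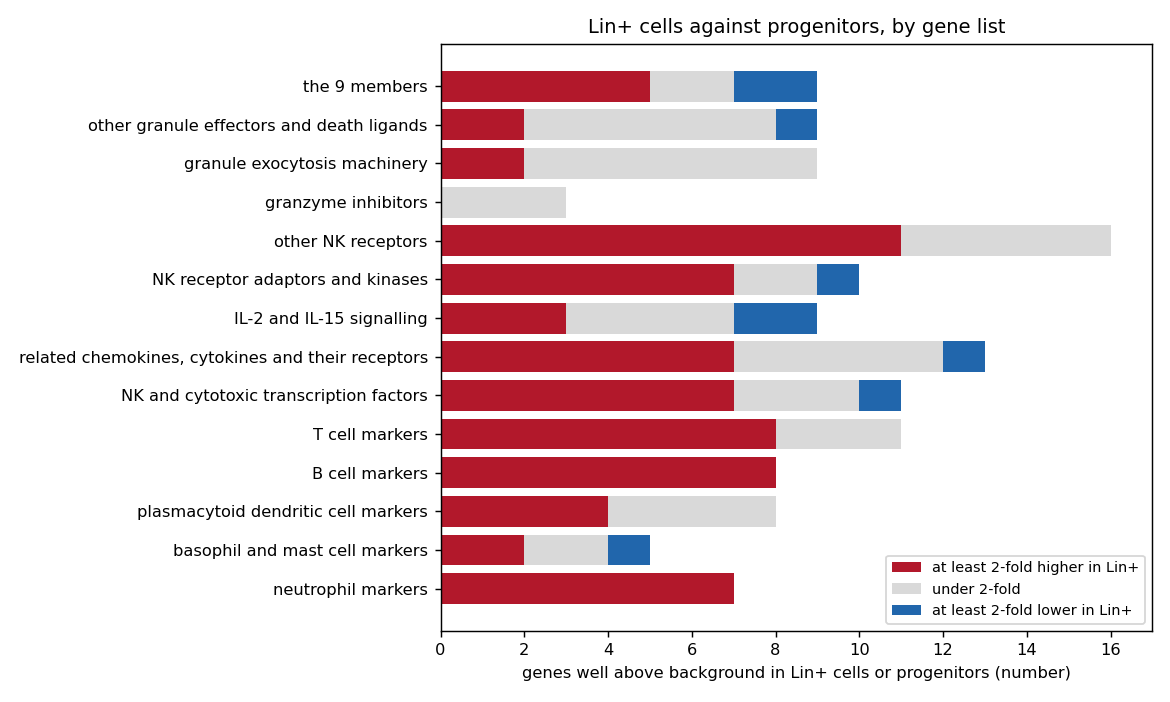
Counts of genes at least 2-fold higher (red), under 2-fold (grey) and at least 2-fold lower (blue) in Lin+ cells than in progenitors, for the 9 genes and for each list; the x axis is the number of genes well above background on at least 1 of the arrays. Other NK receptors reach 11 of 16 higher, granule effectors 2 of 9, and all 8 B cell and all 7 neutrophil markers are higher. Of all genes tested, 14.5% are higher and 26.4% lower.

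The markers of other blood cells differed between Lin+ cells and progenitors to unlike extents. Of all genes tested between these fractions, 14.5% were higher in Lin+ cells and 26.4% lower. T cell markers were higher for 8 of 11 tested and lower for 0 (median 2.18), B cell markers for 8 of 8 (5.16), neutrophil markers for 7 of 7 (7.57) and plasmacytoid dendritic cell markers for 4 of 8 (1.44). Basophil and mast cell markers were higher for 2 of 5 and lower for 1 (-0.32). Cd3d and Cd3g, parts of the T cell receptor complex, were at least 64.4-fold and 18.2-fold higher, Cd8b1 was at least 10.9-fold and Thy1 was higher by 3.52 ± 0.21. The 3 tested T cell markers without a call include chains of the same complexes. Cd3e went from 2.94 in progenitors to 3.19 in Lin+ cells and Cd4 from 2.78 to 2.91. Cd8a went the other way, from -1.18 to -1.65. Of the 12 T cell markers on the array, 7 were well above background in each of LT-HSC and ST-HSC, 8 in the progenitors and 11 in Lin+ cells. Of all named genes, 58.6%, 59.9%, 57.5% and 61.5% were, in that order. Cd3e, Lck and Thy1 were among those measured in every fraction, while Cd3d, Cd3g and Cd8b1 were not well above background in the 3 other than Lin+. The part of T cells in the Lin+ levels of Gzma, Klrd1, Il2rb and Ccl5 was not tested, and these genes are used by both T and NK cells. Ncr1 and Klrb1c, which are less shared with T cells, were measured in Lin+ cells at -2.86 and 0.08. For Ncr1 the bound over progenitors was only 1.01-fold. Klrb1c was as high in LT-HSC, at 0.18, and its other probe was not well above background on any array. The part of NK cells in the Lin+ levels was not tested either.

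In LT-HSC, 8 of the 9 genes were well above background, and 58.6% of all named genes were. The counts there were 7 of 12 for T cell markers, near that share, 2 of 8 for B cell markers and 8 of 11 for the listed transcription factors. Among those factors Id2 and Runx3 were measured there, at 1.26 and 1.64. Tbx21 and Eomes were not well above background in LT-HSC, at -4.31 and -2.86, and both were in Lin+ cells, at 0.61 and -0.45. The part of NK, T or B cells in the LT-HSC signal was not tested. In progenitors, where Gzmb was highest, basophil and mast cell markers were higher than in ST-HSC for 3 of 5 tested and lower for 0, with the basophil protease Prss34 higher by 6.12 ± 0.30 and Mcpt8 by 2.29 ± 0.20. Neutrophil markers were higher at the same step for 6 of 6 tested. Of all genes tested at that step, 10.0% were higher and 10.2% lower. From progenitors to Lin+ cells, where Gzmb and Nkg7 fell, all 7 neutrophil markers rose at least 2-fold. Among the 5 basophil and mast cell markers, Prss34 (3.36 to 5.75) and Mcpt8 (3.31 to 4.61) rose that far. Gata2 fell at least 2-fold (4.49 to 1.32), and Cpa3 (2.79 to 1.96) and Tpsb2 (-0.56 to -0.88) went down by less than 2-fold. Of all genes tested between progenitors and Lin+ cells, 14.5% were higher in Lin+ cells and 26.4% lower. The part of basophils, mast cells and neutrophils in the progenitor signal of Gzmb and Nkg7 was not tested.

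**Figure D4:**
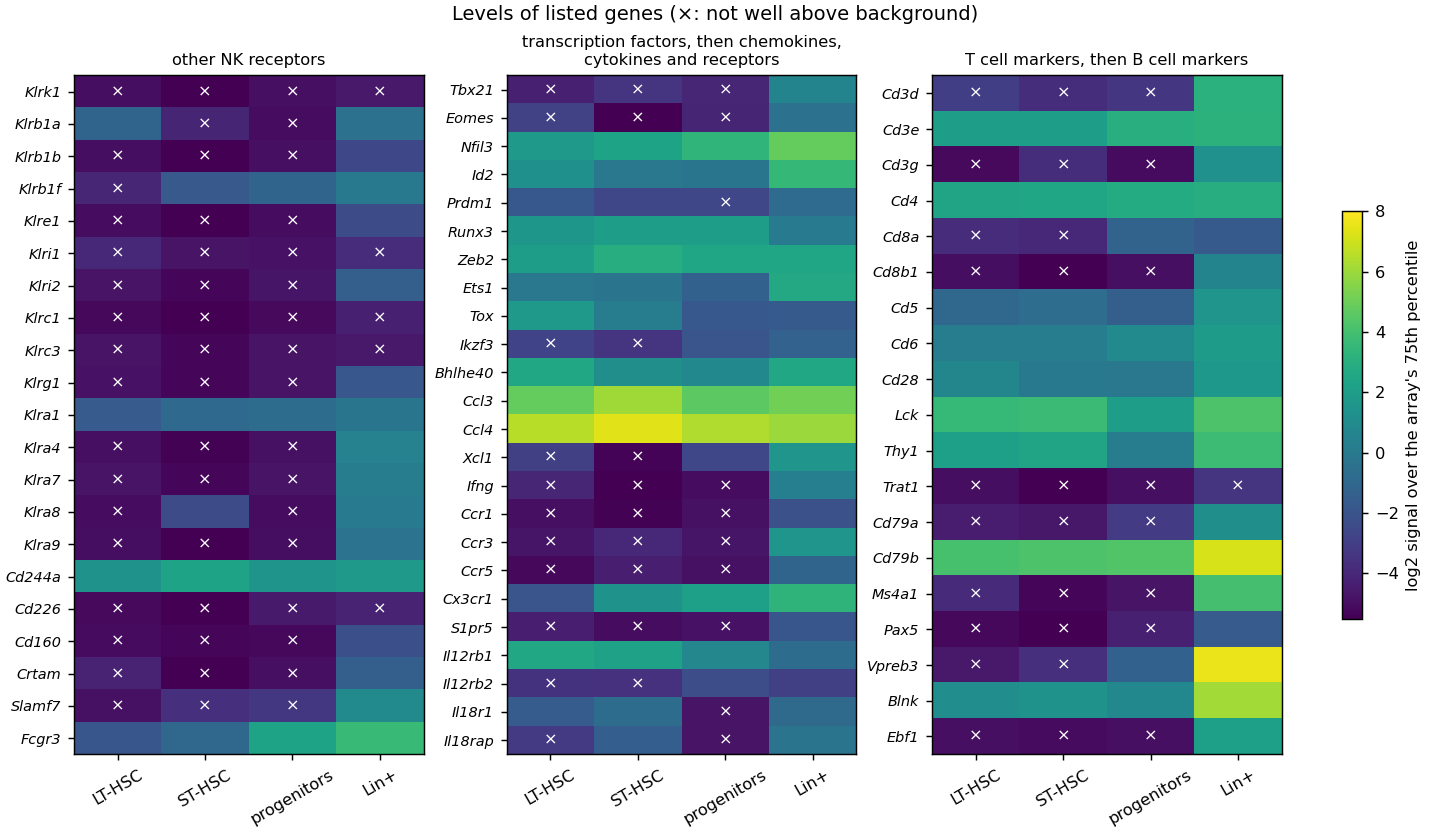
Levels of listed genes in the 4 fractions, as log2 signal over the 75th percentile of the array (colour), with other NK receptors, transcription factors with chemokines and receptors, and T and B cell markers as panels; a cross marks a gene not well above background. Most NK receptors are crossed in the 3 fractions other than Lin+ and measured in Lin+ cells, where 16 of 21 are well above background. Of all named genes, 61.5% are well above background in Lin+ cells. Klrb1a is measured in LT-HSC and Lin+ cells.

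The genes beside the members on their chromosomes, 10 protein-coding genes on each side in RefSeq order, were examined after the members' values were known. Klrb1c lies on chromosome 6 among the other Klrb1 and Clec2 genes. Klrb1a, which encodes a related NK receptor, had levels of -1.16 for LT-HSC, -4.09 for ST-HSC, -5.08 for the progenitors and -0.42 for Lin+ cells, and it was at least 4.69-fold lower in ST-HSC than in LT-HSC and at least 5.45-fold higher in Lin+ cells than in progenitors. Klrb1, which lies next to Klrb1c, gave -2.76, -5.12, -5.20 and -2.61. For Klrb1a, Klrb1 and Klrb1c, LT-HSC and Lin+ cells were well above background and progenitors were not. Klrb1f went the other way between the stem cell fractions, at -4.04, -1.71, -1.17 and -0.05, and was at least 2.34-fold higher in ST-HSC. The Klrb1 genes are close paralogs, and whether their probes share signal was not tested.

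Gzmb lies on chromosome 14 in a row of granzyme and mast cell protease genes. Of its granzyme neighbours, Gzmc was well above background in Lin+ cells (-2.31) and Gzme in ST-HSC (-2.96), and Gzmd, Gzmf, Gzmg and Gzmn were not on any array. Ctsg, the neutrophil protease cathepsin G in the same row, gave 2.45 for LT-HSC, 8.20 for ST-HSC, 10.40 for the progenitors and 8.75 for Lin+ cells, and was highest in progenitors as Gzmb was, without the low in ST-HSC. Gzmk, next to Gzma on chromosome 13, stayed between -2.22 and -1.29 over the 4 fractions, with no call in any comparison. Klrd1 lies on chromosome 6 beside Klre1, which was well above background in Lin+ cells (-2.35), and Klrk1, which was not. The chemokine genes beside Ccl5 on chromosome 11 took different courses. Ccl6 gave -1.06, 0.25, 1.78 and 7.27 in the order of differentiation and, like Ccl5, was called higher in Lin+ cells than in progenitors and than in LT-HSC. Ccl9, the adjacent gene, was highest in ST-HSC and was called higher in Lin+ cells than in LT-HSC, at 4.90 against 3.74. Ccl3 was highest in ST-HSC, at 4.83, 6.09, 4.62 and 5.12, and so was Ccl4, at 6.54, 7.37, 6.38 and 5.99.

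**Figure D5:**
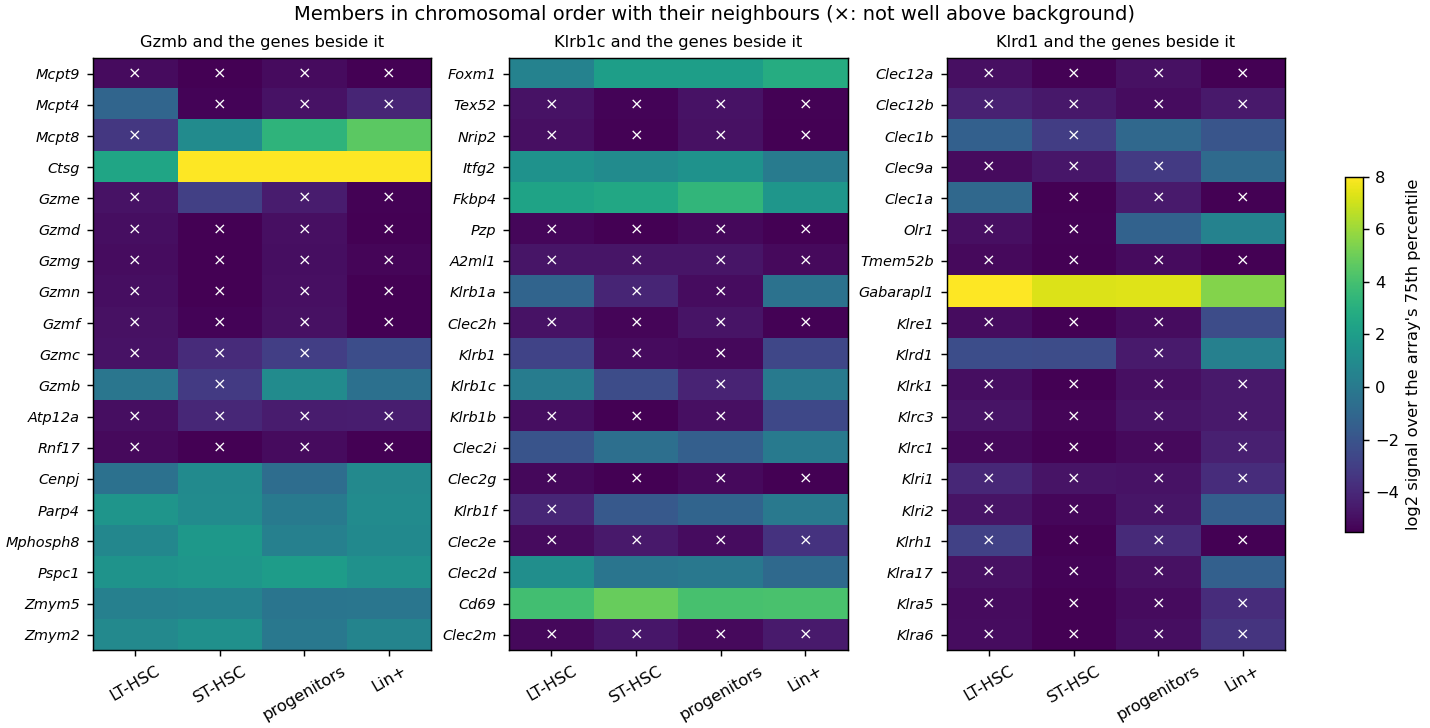
Levels of Gzmb, Klrb1c and Klrd1 and of the measured genes beside them in chromosomal order, as log2 signal over the 75th percentile of the array (colour, ending at 8), with a cross where a gene was not well above background. The granzyme genes above Gzmb are mostly crossed, while Klrb1a, Klrb1 and Klrb1c are measured in LT-HSC and Lin+ cells and crossed in progenitors.

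The mean course of the 9 genes, each taken relative to its own mean over the 4 arrays, was -0.16 for LT-HSC, -1.02 for ST-HSC, -0.38 for the progenitors and 1.57 for Lin+ cells. By root mean square distance over the 4 arrays, the genes nearest to it were Dusp10 (0.079), Plk3 (0.087), Rbm24 (0.090), Btg1 (0.099), Stxbp6 (0.11) and Tmem86b (0.13). Dusp10, a phosphatase of stress kinases, had levels of -0.47, -1.17, -0.48 and 1.38, and Btg1, an antiproliferative gene, 6.23, 5.58, 5.96 and 8.00. The 9 genes themselves lay farther from their mean, from 0.56 for Klrd1 to 2.02 for Gzma, so the mean course describes none of them closely.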

How the data were processed

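The scanner files deposited by the authors hold spot intensity on a linear scale, which Agilent Feature Extraction 10.7.1.1 (version per the submitters' processing notes) had background-corrected within each array. The authors' deposited value table is a linear ratio: all its values for 55246 single-spot probes (100%) were within 1% of the intensity divided by an array constant (191, 217, 137 and 230), which settles its scale, centring and direction. It served as an alternative, with medians of 0.0619, 0.0630, 0.0704 and 0.0738 per column.

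Control spots and spots with feature outlier flags were left out, which dropped 3 of 55681 probes. Log2 signals were scaled to the 75th percentile of each array, and 48.1% of probes were named through RefSeq accessions (GRCm38.p6, names and gene order). The array design uses another build, so promoter coordinates are those of the RefSeq table alone. The brightest probe stood for a gene, differences were called at 2-fold, and signals not well above background took their own value or, where higher, the floor of their array (-2.94, -3.39, -2.87 and -3.47 in the order of differentiation). The flag also marked 4 to 7 of 308 negative control spots per array.

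The 9 genes and the lists were chosen with earlier results of these data known. The text names all members, the called genes of a list (all where 5 or fewer, otherwise the 4 largest differences between Lin+ cells and progenitors), up to 2 per list at the earlier steps, and the 6 genes nearest to the members' mean course. Some genes under this rule are not reported here. Klrk1, Klrc1, Runx3, some markers and the chromosomal neighbours were chosen after their values were seen.

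Alternatives changed background, scaling, probe rule, floor, flags and source. The planned normexp alternative (offset 50) used median spot signals in place of mean signals, and a planned comparison of protein sequences was not run. Python 3.11.15, numpy 2.4.6, pandas 2.3.3, R 4.3.3 and limma 3.58.1 were used. On simulated data for Lin+ cells against progenitors, the calls were tested and found 50 of 50 probes changed 3-fold and 10 of 21254 unchanged ones. The simulation used only probes well above background on both arrays and added only the spot error. It holds no variation between arrays, sorts or mice and no bounds, so it gives no false-call rate for the real comparisons.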

Additional observations from a re-analysis of the deposited data

How the results depend on the processing

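Over 11 alternatives, 341 differences of a member in a comparison were recomputed. Of these, 312 kept their call, 29 changed it and 0 reversed a called direction. The authors' value table, among these alternatives, divides the same signals by constants close to the array percentiles used here. Its calls had to be nearly the same and are no separate check. Differences left without a value were not counted, such as Gzma and Gzmb in ST-HSC against LT-HSC where both arrays had to be well above background. The 312 therefore overstate how widely the calls were tested. For ST-HSC against LT-HSC, the count of higher genes became 1 with normexp, spike-in scaling or the mean of a gene's probes. The count of lower genes became 1 where both arrays had to be well above background. It became 2 with normexp or without spots flagged for their background, and 4 with no floor. For progenitors against ST-HSC, the count of higher genes became 1 with the percentile over detected probes, quantile normalization, spike-in scaling or both arrays well above background, and 4 with no floor. The count of lower genes there became 1 with normexp, the percentile over detected probes, median scaling, the median gene at 0 or quantile normalization, 3 with spike-in scaling and 2 with no floor. For Lin+ cells against progenitors, the count of lower genes became 0 with normexp or spike-in scaling. It became 1 with the percentile over detected probes, the median gene at 0 or quantile normalization. The count of higher genes became 2 where both arrays had to be well above background. It became 4 without spots flagged for their background and 6 with no floor. Leaving out the floor or requiring both arrays changes which genes with bounds are counted. For the other settings the cause was not tested.

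Scaling also moved the split of calls over all genes. The share of called genes that were higher went from 39.2% to 65.5% with spike-in scaling in ST-HSC against LT-HSC. With the other scalings it lay between 34.7% and 38.6%. In progenitors against ST-HSC it went from 49.7% to between 13.1% and 38.9% with the other scalings. In Lin+ cells against progenitors it went from 35.4% to between 31.9% and 73.0%, and against LT-HSC from 41.0% to between 30.7% and 57.2%. Normexp on median spot signals was added after seeing the data, as was leaving out spots with background flags, which dropped 4341 probes and with them the bright Klrb1c probe. Each fraction had 1 array, so no array could be left out and no paired analysis was possible because no fraction has a second sample. Signal near background limits Gzma, Gzmb, Ncr1, Klrb1c, Klrd1 and Il2rb in at least 1 of the fractions other than Lin+. Ncr1 was near background in Lin+ cells too, at 31.8 intensity units where the floor was 20.9.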
